A study of Bos taurus with 20 samples.

Results

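The 5 genes GNAS, PRKACA, PRKAR1A, PRKAR2B and CREB1 of the beta-adrenergic cAMP pathway were followed in bovine back muscle. GNAS is the alpha subunit of the stimulatory G protein, the next 3 are subunits of protein kinase A (PKA), and CREB1 is a transcription factor that PKA phosphorylates. All probe sets (groups of short probes read as 1 value) that the platform annotation assigns to exactly 1 of these symbols were taken, which gave 10 of 24128 probe sets on the array, for 5 of 9156 named genes. GNAS has 5 of them, CREB1 has 2, and PRKACA, PRKAR1A and PRKAR2B have 1 each. GNAS was chosen because 1 of its probe sets had the smallest p among named genes with lower values in high fat muscle, and the other genes were added as its pathway partners.

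Each of the 20 arrays held total RNA from the Musculus longissimus dorsi of 1 bull of the F2 generation of a Holstein by Charolais cross, a dairy and a beef breed. The labels put 10 bulls in a high and 10 in a low intramuscular fat (IMF) group, with no age, feeding or treatment given. The titles number 10 bulls with an S and 10 without, 5 of each IMF group in each set. What the S stands for is not stated, and these sets are called the S titles and the other titles. IMF is the fat stored between muscle fibres.

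In this pathway, adrenaline or noradrenaline binds a beta-adrenergic receptor, the stimulatory G protein switches on adenylyl cyclase, and cyclic AMP (cAMP) is made. cAMP binds the regulatory subunits of PKA and frees its catalytic subunits, which phosphorylate enzymes of glycogen and fat breakdown as well as CREB1. In muscle this signal drives glycogen breakdown and favours growth, and in fat cells it drives the release of stored fat. The GNAS locus is imprinted and makes several transcripts that share their later exons. The annotation does not say which transcript each GNAS probe set reads, and no probe, transcript or protein sequence was used here.

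Values are log2(intensity + 1), called log2 units, and differences are given on this scale, with the standard error (SE) of the limma fit. Levels of different probe sets cannot be set against each other, because each has its own probes. Of the 10 probe sets, 6 passed a filter that left out the dimmest 40% of the array by mean intensity. The other 4 (GNAS Bt.16798.1.A1_at and Bt.5106.1.S1_at, PRKAR2B Bt.462.1.S1_at and CREB1 Bt.18801.1.A1_at) were not tested, and without detection calls their values may be background.

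The arrays had median intensities from 51.6 to 67.7, lowest in high IMF replicates 6 (51.6) and 9 (56.7), both S titles. Of 10 listed muscle fibre markers, 9 were on the array, each at or above the 99.4 percentile of mean intensity. ALB, the liver's albumin, read over 2000 on 4 arrays, 3 of high IMF with S titles and 1 of low IMF with another title. The title series separated the arrays widely. The bioB hybridisation control, a bacterial transcript added to each array in a set amount, averaged 204 to 355 on the S arrays and 397 to 482 on the others. Differences between the animals of the 2 title series and between the handling of their arrays therefore cannot be told apart.

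The GNAS probe sets did not behave alike between high and low IMF. One of them, Bt.20852.1.A1_at, was lower in high IMF muscle, at 7.12 ± 0.29 log2 units against 7.57 ± 0.19 in low IMF (SD, n = 10 each). The brightest, Bt.5106.2.S1_at, was at 12.75 ± 0.13 and 12.83 ± 0.09, and the second brightest, Bt.5106.1.S1_a_at, at 10.21 ± 0.14 and 10.15 ± 0.17. Because GNAS was chosen from this contrast, these values are a description without a test. In a bulk sample, fewer cells of a type and less RNA per cell cannot be told apart. By the limma test over 14409 probe sets, 0 were called at an adjusted p of 0.05 (0%), with 237 at an unadjusted p under 0.05 (1.64%) and 0 called by a plain t-test. With title series in the model limma again called 0, with 1050 at an unadjusted p under 0.05 (7.29%).

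In Bt.20852.1.A1_at the low IMF bulls ranged from 7.29 through a median of 7.52 to 7.89 log2 units. The high IMF bulls ranged from 6.65 through 7.17 to 7.56. Of the high IMF bulls, 6 of 10 lay below every low IMF bull and 9 of 10 below the low IMF median, but the groups overlapped. The difference was -0.45 (SE 0.12), or 0.734-fold. Next in order of p among named genes with lower values stood SOCS2 (-0.95, SE 0.26) and PIAS1 (-0.39, SE 0.11).

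The same probe set can be read within each title series. Among the S titles the high IMF bulls had 6.72, 7.36, 7.04, 6.65 and 7.12 log2 units, and the low IMF bulls 7.47, 7.29, 7.34, 7.51 and 7.89. High IMF replicate 7, at 7.36, lay above 2 of the 5 low IMF bulls, and the other 4 lay below all of them. Among the other titles the high IMF bulls had 7.22, 6.91, 7.34, 7.56 and 7.31, and the low IMF bulls 7.69, 7.68, 7.75, 7.51 and 7.53. Here high IMF replicate 4 (7.56) was the one that reached into the low IMF range. The groups thus overlapped within each series, as they did for all but 1.33% of tested probe sets in the S titles and 0.583% in the others. The differences were -0.53 (SE 0.16) in the S titles and -0.36 (SE 0.12) in the others.

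The lowest values of this probe set came from the arrays of high IMF replicates 6 and 9, which also had the lowest median intensities. Without those 2 arrays the difference was -0.34 (SE 0.11), and with every array centred on its median it was -0.41 (SE 0.10). Without the 4 arrays of high ALB it was -0.35 (SE 0.14). Leaving out 1 animal at a time gave values between -0.49 and -0.39. The mean level of 12 tested adipocyte markers was 7.49 to 11.1 log2 units in high IMF and 6.54 to 9.74 in low IMF, with 10 of the 12 higher in high IMF. Its part in the GNAS difference was not tested.

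**Figure D1:**
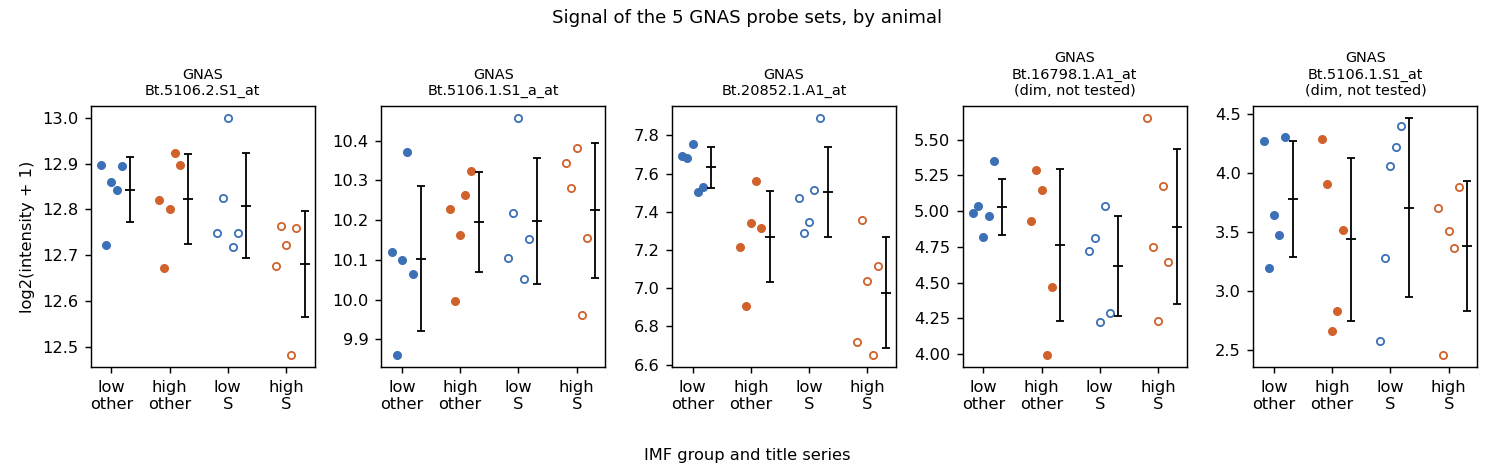
Log2(intensity + 1) of the 5 GNAS probe sets (1 panel each, with its own vertical scale) for 4 sets of 5 bulls, by IMF group (low blue, high orange) and title series (other filled, S open). Points are animals and bars the mean ± SD. In Bt.20852.1.A1_at the high IMF means are lower in both title series, while in Bt.5106.1.S1_a_at they are not.

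The brightest GNAS probe set, Bt.5106.2.S1_at, ran from 12.48 through a median of 12.76 to 12.92 log2 units in high IMF and from 12.72 through 12.83 to 13.00 in low IMF. The difference was -0.07 (SE 0.07), with -0.13 in the S titles and -0.02 in the others. Of the high IMF bulls, 3 lay below every low IMF bull, the lowest being replicate 9, and the remaining 7 lay within the low IMF range. Bt.5106.1.S1_a_at ran from 9.96 through 10.25 to 10.38 in high IMF and from 9.86 through 10.11 to 10.46 in low IMF. It differed by 0.06 (SE 0.09), with 0.03 in the S titles and 0.09 in the others, against the sign of the other 2 tested probe sets.

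Both dim GNAS probe sets varied more between animals. Bt.16798.1.A1_at had intensities of 14.9 to 49.4 in high IMF and 17.7 to 39.8 in low IMF, a difference of 0.0030 log2 units (SE 0.19) made of 0.27 in the S titles and -0.27 in the others. Bt.5106.1.S1_at had intensities of 4.50 to 18.5 and 4.99 to 20.1, a difference of -0.33 (SE 0.26), with -0.32 and -0.34. Thus 3 of the 5 GNAS probe sets had lower means in high IMF, and of the other 2 one was higher by 0.06 and one by 0.0030.

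The GNAS probe sets were also set against each other animal by animal. Over the 20 bulls, Bt.20852.1.A1_at and the brightest probe set had a Pearson r of 0.58 (permutation p = 0.00782, adjusted 0.352 over 45 member pairs) and a Spearman rho of 0.48 (permutation p = 0.0348, adjusted 0.392). Without the 2 bulls farthest from the median of the brightest probe set, r was 0.48. Within title series r was 0.52 in the S titles and 0.51 in the others (10 bulls each). Within high IMF it was 0.90, and within low IMF -0.33. The 2 brighter probe sets had r = 0.49 (permutation p = 0.0278, adjusted 0.367), with 0.67 and 0.62 within the title series and 0.20 without the 2 farthest bulls. Bt.20852.1.A1_at and Bt.5106.1.S1_a_at had r = -0.12 (permutation p = 0.611, adjusted 0.888). None of the 45 pairs of member probe sets passed after adjustment.

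The genes whose probe sets followed Bt.20852.1.A1_at most closely over the 20 bulls, among 8963 probe sets with 1 other symbol, were RAD50, CIR1, FMR1, RBBP6 and RSRC2. RAD50, a DNA repair protein, had a Pearson r of 0.89 and a Spearman rho of 0.89, and r was 0.92 within the S titles and 0.96 within the others. The other 4 had r from 0.81 to 0.83, with 0.88 to 0.92 within the S titles and 0.51 to 0.69 within the others. RAD50 differed between high and low IMF by -0.61 (SE 0.27) and CIR1, a transcriptional corepressor, by -0.56 (SE 0.21). As both were picked for likeness to a probe set chosen from this contrast, lower means in high IMF follow in part from the choice. These differences are a description and no separate support for the GNAS values. For the brightest GNAS probe set the closest were MMAA, BCDIN3D, BOLA-DQB, NFE2L1 and ENOSF1, with r from 0.78 to 0.83. The 2 lists share no gene, and as the highest of many values these r carry no p.

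Between the title series, which had no part in choosing GNAS, its tested probe sets did not pass. A comparison of S with other titles, with IMF group in the model, called 9858 of 14409 probe sets by limma (68.4%), 33.5% higher and 35% lower in S titles, so that a call is the common outcome there. Bt.5106.2.S1_at differed by -0.09 (SE 0.06, limma adjusted p = 0.197), and Bt.5106.1.S1_a_at by 0.06 (SE 0.08, adjusted p = 0.485). Bt.20852.1.A1_at differed by -0.21 (SE 0.10, adjusted p = 0.0712). It passed without high IMF replicate 2 (-0.25, limma adjusted p = 0.0360), high IMF replicate 7 (-0.25, 0.0331) or low IMF replicate 10 (-0.26, 0.0207), and without high IMF replicates 6 and 9 together the difference was -0.12 (0.283). With the bioB signal as a further covariate it turned to 0.07 (limma adjusted p = 0.862). After quantile normalization the brightest probe set passed as lower in S titles (-0.13, limma adjusted p = 0.0374).

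PRKACA, the main catalytic subunit of PKA, was higher in the S titles, while its mean was nearly the same in high and low IMF. In the S titles its probe set Bt.4420.1.S1_at had 10.84, 10.87, 10.91, 10.92 and 10.70 log2 units in high IMF and 10.81, 11.15, 11.27, 10.77 and 10.66 in low IMF. In the other titles it had 10.46, 10.60, 10.41, 10.59 and 10.69 in high IMF and 10.37, 10.53, 10.31, 10.58 and 10.52 in low IMF. All 10 S bulls lay above the median of the others and 9 above every one of them, so the series overlapped in a single pair, low IMF replicate 10 of the S titles and high IMF replicate 5 of the others.

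The PRKACA difference between S and other titles was 0.38 (SE 0.08, 1.30-fold, limma adjusted p = 2.42e-04). It was 0.30 among the high IMF bulls and 0.47 among the low IMF bulls. It was the 1 member probe set called of 6 tested, where 68.4% of all tested probe sets were called, 33.5% as higher in S. Under the other scalings it was 0.41 and 0.45, and with the adipocyte marker level in the model 0.48 (limma adjusted p = 4.46e-04). With the bioB signal in the model, which does not overlap between the title series, it was 0.66 (limma adjusted p = 0.0204). Between high and low IMF the PRKACA difference was 4.38e-04 (SE 0.12), with -0.09 in the S titles and 0.09 in the others.

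**Figure D2:**
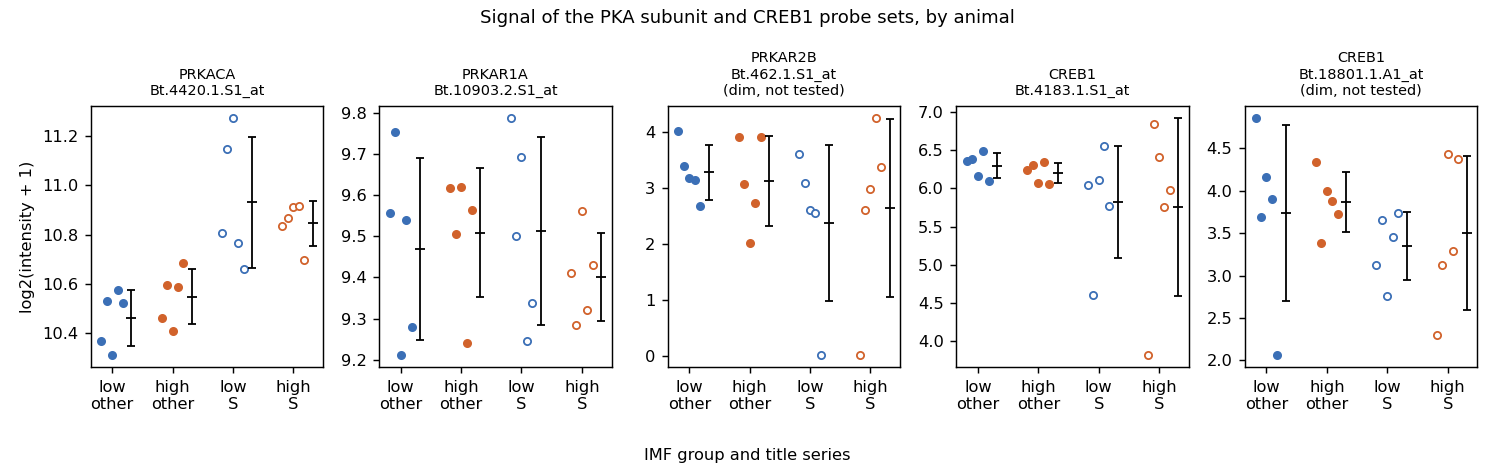
Log2(intensity + 1) of the PKA subunit and CREB1 probe sets (1 panel each, with its own vertical scale) for 4 sets of 5 bulls, by IMF group (low blue, high orange) and title series (other filled, S open). Points are animals and bars the mean ± SD. PRKACA lies higher in both sets of S bulls, and CREB1 Bt.4183.1.S1_at spreads from 3.81 to 6.85 in the S titles against 6.06 to 6.50 in the others.

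Several measures of the arrays and of other cell types moved with the title series beside PRKACA, and their part in its difference was not tested beyond the fits with the adipocyte level and the bioB signal. The mean level of 12 tested adipocyte markers was 7.31 to 11.1 log2 units in the S titles and 6.54 to 8.97 in the others. By limma 11 of these 12 were called higher and 1, LPL, lower in the S titles. Over all tested probe sets 33.5% were called higher and 35% lower. LEP, a fat cell hormone too dim to be tested, reached 0 on at least 1 array. Macrophage markers were called higher in 4 of 5 tested, with a mean level of 6.99 to 7.54 against 5.65 to 7.28. Of 9 tested muscle fibre markers 3 were called higher and 0 lower. The ratio of the 3' to the 5' actin probe set, a measure of RNA quality, had a median of 0.767 in the S titles and 0.864 in the others, with overlapping ranges. For the GAPD probe sets the medians of this ratio lay closer together, at 0.766 and 0.785.

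**Figure D3:**
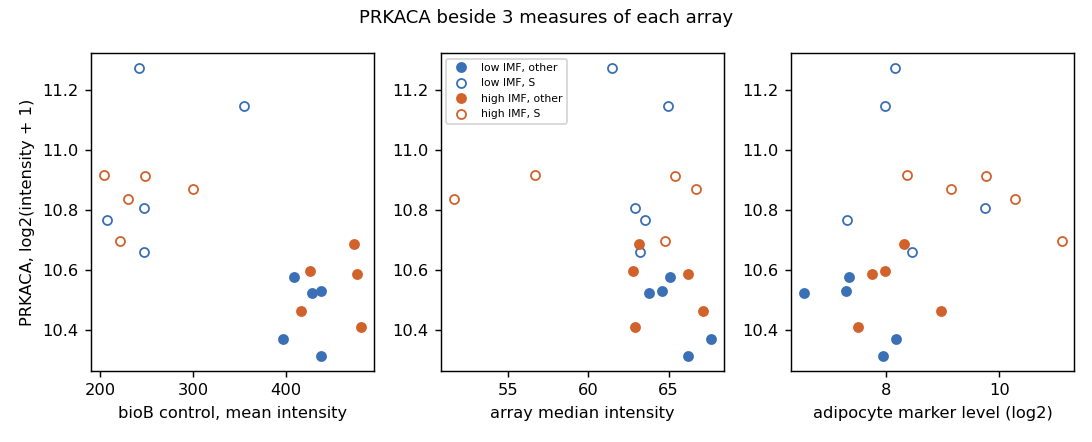
PRKACA in log2(intensity + 1) against the mean intensity of the bioB control (left), the array's median intensity (middle) and the adipocyte marker level in log2 units (right), 1 point per bull, coloured by IMF group (low blue, high orange) with S titles open and other titles filled. The title series part completely along the bioB axis (204 to 355 against 397 to 482) and overlap on the other horizontal axes.

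PRKAR1A, the regulatory subunit that holds PKA inactive in most tissues, had similar means in both IMF groups and in both title series. Its probe set Bt.10903.2.S1_at ran from 9.24 through a median of 9.47 to 9.62 log2 units in high IMF and from 9.21 through 9.52 to 9.79 in low IMF. All high IMF values lay within the low IMF range, and the difference was -0.04 (SE 0.09). Between S and other titles it was -0.03 (SE 0.09, limma adjusted p = 0.761). The whole range over the 20 bulls was 0.58 log2 units, against 0.96 for PRKACA.

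PRKAR2B, the regulatory subunit known from fat and nerve tissue, was close to the floor of the array. Its intensities ran from 0.01 through a median of 7.14 to 18.1 in high IMF and from 0.01 through 7.67 to 15.2 in low IMF. The value of 0.01 came from 2 S bulls, high IMF replicate 6 and low IMF replicate 10. The difference between IMF groups was 0.06 log2 units (SE 0.49), and its sign rested on these 2 arrays, with 0.38 without high IMF replicate 6 and -0.26 without low IMF replicate 10. The probe set had a mean intensity in the lowest 8.46% of the array.

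CREB1 was even across the other titles and scattered in the S titles on its tested probe set only. Bt.4183.1.S1_at ran from 3.81 through 6.16 to 6.85 log2 units in high IMF and from 4.60 through 6.13 to 6.55 in low IMF. The lowest values were those of high IMF replicate 6 (3.81) and low IMF replicate 7 (4.60), both S titles. The IMF difference was -0.08 (SE 0.29), and it turned to 0.17 without high IMF replicate 6. Between S and other titles it was -0.46 (SE 0.28, limma adjusted p = 0.144). Leaving out high IMF replicate 6 moved this to -0.24 (limma adjusted p = 0.292). The SD was 0.92 in the S titles against 0.15 in the others. The dim second probe set, Bt.18801.1.A1_at, differed by 0.14 (SE 0.31) between IMF groups.

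**Figure D4:**
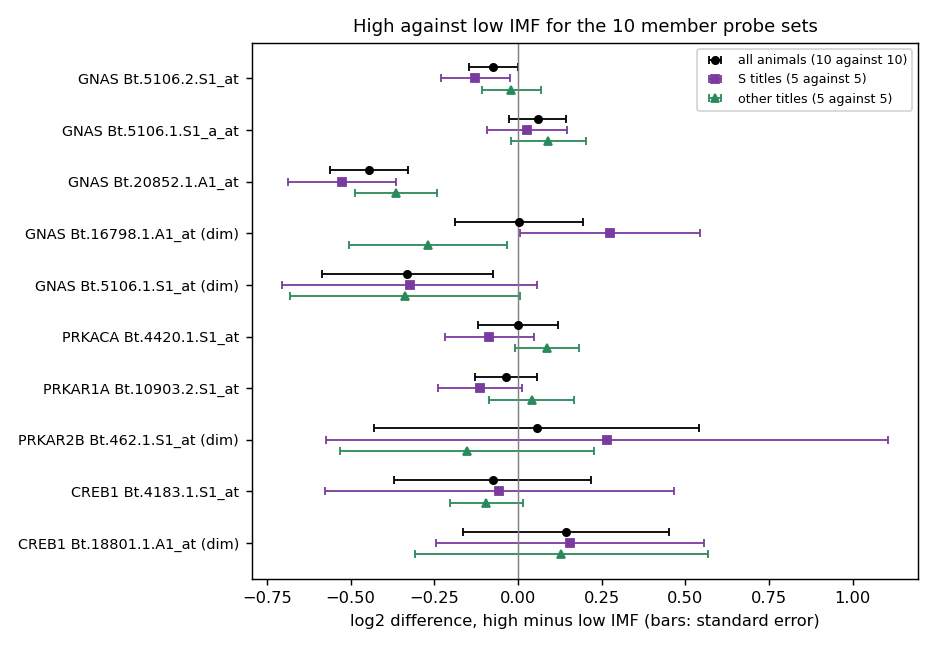
Log2 difference, high minus low IMF, for the 10 probe sets of the 5 genes over all bulls (black circles), S titles (purple squares) and other titles (green triangles), with bars of 1 standard error. Bt.20852.1.A1_at of GNAS is at -0.45 over all bulls, while PRKACA is at 4.38e-04 and PRKAR1A at -0.04. GNAS was chosen from this contrast.

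Whether the IMF difference itself differed between title series was tested as an interaction, and the 6 tested member probe sets had limma adjusted p-values of 0.871 up to 0.991. That test called 0 of 14409 probe sets (0%), with 788 at an unadjusted p under 0.05. High against low IMF also gave 0 calls by limma within the S titles (1139 unadjusted) and 0 within the others (519 unadjusted).

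A list of 116 genes of the pathway was read from the same fits. Of these, 73 had a probe set and 58, with 77 probe sets, were tested. Between high and low IMF 0 of the 77 were called by limma, 33 were higher and 44 lower, and the median difference was -0.02 where that of all tested probe sets was -0.03. Leaving out the probe sets of the 5 genes, 1 of 71 stood at an unadjusted p under 0.05, beside 1.64% of all tested probe sets. It was AKAP8, a nuclear anchoring protein of PKA (-0.26, SE 0.12). The other AKAP8 probe set was at -0.21 (SE 0.15). Between S and other titles 53 of the 77 were called by limma, 29 higher and 24 lower, or 68.8% beside the 68.4% of all tested probe sets. The S and other bulls did not overlap in 13 of the 77 (16.9%), against 19.8% of all tested probe sets (10.4% with S higher, 9.37% with S lower) and 0 of the 6 member probe sets. In the list 8 lay wholly higher and 5 wholly lower in S.

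Among the receptors and the kinases that switch them off, 3 of 5 tested probe sets were called higher in S titles and 0 lower. Over all tested probe sets 33.5% were called higher and 35% lower, which applies beside each role count below too. ADRB1, a beta-adrenergic receptor, rose from a range of 4.51 to 5.36 log2 units in the other titles to 5.55 to 6.48 in the S titles (1.04, SE 0.15), without overlap. The mean intensity of ADRB1 was only 49.0, and without detection calls its lower values may be background. GRK2, the receptor kinase, rose by 1.35 (SE 0.15) and GRK6 by 0.41 (SE 0.10). ADRB3, the receptor best known from fat cells, differed by 0.14 (SE 0.10, limma adjusted p = 0.206) and by -0.06 (SE 0.11) between high and low IMF. ADRB1 differed by -0.0064 (SE 0.27) and GRK5 by -0.11 (SE 0.11) between IMF groups.

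Among G protein subunits and their partners 7 of 13 probe sets were called higher and 2 lower in S titles. GNB2 and GNB1, beta subunits that pair with GNAS, rose by 0.74 (SE 0.07) and 0.53 (SE 0.07), and GNAI2, an inhibitory alpha subunit, by 0.69 (SE 0.12). GNG2, a gamma subunit, differed by 0.37 (SE 0.30) between IMF groups. Among adenylyl cyclases, which make cAMP, 3 of 6 were called higher and 1 lower. ADCY6 rose by 0.61 (SE 0.12) on its brighter probe set, while its other one fell by 0.29. ADCY7 rose by 0.78 (SE 0.25) and ADCY2 by 0.31 (SE 0.10), and ADCY2 differed by -0.21 (SE 0.12) between IMF groups.

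The phosphodiesterases, which break down cAMP, had 3 tested probe sets, for 3 of 14 listed genes, and all 3 were called. Of all tested probe sets 68.4% were called. PDE4A rose by 0.96 (SE 0.11) in S titles, and PDE8A and PDE1A fell by 0.51 (SE 0.07) and 0.52 (SE 0.10). Between high and low IMF PDE8A differed by -0.08 (SE 0.14). Among PKA subunits and inhibitors 2 were called higher and 3 lower of 6. PRKACB, the second catalytic subunit, fell by 1.47 (SE 0.14), opposite to PRKACA, from 6.35 to 7.26 log2 units in the other titles to 4.60 to 5.84 in the S titles. PRKAR2A, a regulatory subunit, fell by 0.37 (SE 0.06), and PKIG, a PKA inhibitor, rose by 0.56 (SE 0.11). Between IMF groups PRKACB differed by -0.04 (SE 0.35) and PKIG by 0.19 (SE 0.17).

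**Figure D5:**
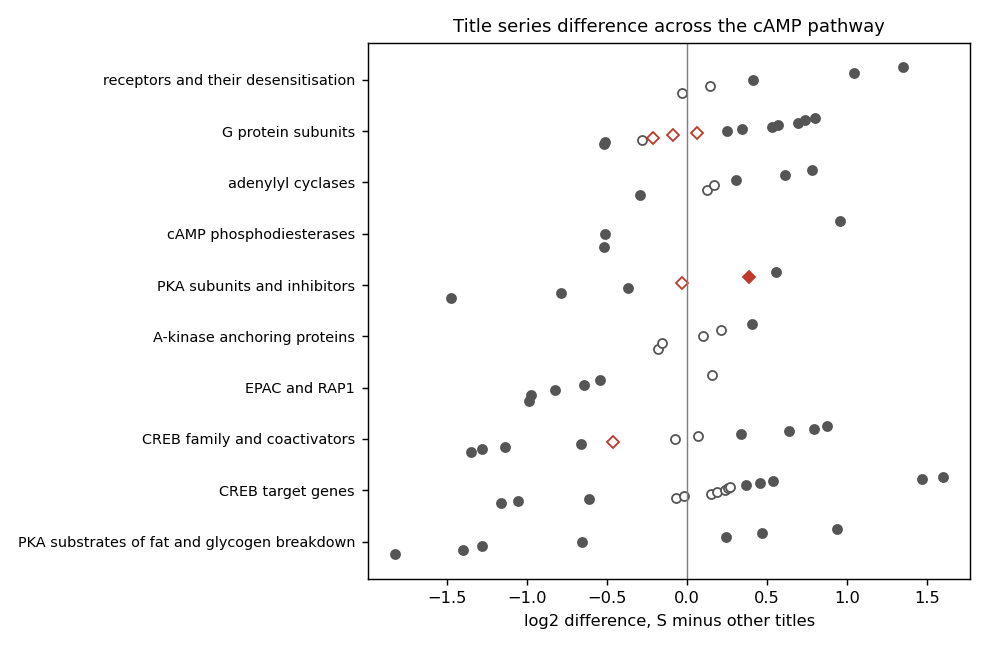
Log2 difference, S minus other titles, for the 77 tested probe sets of the pathway list (1 point each) by role, from the limma fit with IMF group in the model. Red diamonds are probe sets of GNAS, PRKACA, PRKAR1A and CREB1, grey circles other genes, and filled symbols passed an adjusted p of 0.05. PRKACA at 0.38 is the filled diamond, and the GNAS probe sets lie between -0.21 and 0.06.

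Of the anchoring proteins that place PKA in the cell, 1 of 5 probe sets was called, AKAP8L (0.40, SE 0.13). Its other probe set was at -0.18 (SE 0.17) and was not called. EPAC and RAP1 form a branch that senses cAMP without PKA. Its tested genes were RAP1B, RAP1A and RAP1GAP, and no EPAC gene was tested. Of their 6 probe sets 5 were called, all lower, where 35% of all tested probe sets were called lower. These were RAP1B (-0.55, SE 0.09) and 4 probe sets of RAP1A, the brightest at -0.64 (SE 0.13). The count therefore does not stand for separate genes. RAP1GAP differed by 0.14 (SE 0.09) between IMF groups.

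In the CREB family and its coactivators 4 of 11 were called higher and 4 lower. ATF1, a close relative of CREB1, fell by 1.35 (SE 0.17), while the coactivators CRTC2 and CRTC1 rose by 0.79 (SE 0.09) and 0.64 (SE 0.10). CRTC1 differed by 0.22 (SE 0.17) between IMF groups. Of 15 probe sets of CREB target genes 5 were called higher and 3 lower. PPARGC1A, a coactivator of mitochondrial genes, fell by 1.16 (SE 0.22), NR4A1, a nuclear receptor, rose by 0.45 (SE 0.12), and PCK1 rose by 1.46 (SE 0.54). PCK1, also a fat cell marker, differed by 1.24 (SE 0.62) between IMF groups.

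All 7 tested probe sets of PKA substrates, for 4 of 12 listed genes, were called, 3 higher and 4 lower in S titles. Of all tested probe sets 68.4% were called. PYGM, muscle glycogen phosphorylase, rose by 0.47 (SE 0.06), and PPP1R1A, a phosphatase inhibitor activated by PKA, by 0.24 (SE 0.06). PLN, which PKA releases from the calcium pump, fell by 1.28 (SE 0.24) and differed by -0.74 (SE 0.37) between high and low IMF. With its 3 probe sets it makes up most of the lower calls of this role, so the count does not stand for separate genes.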

How the data were processed

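RNA of 20 bulls was measured on an Affymetrix cattle array, 1 array per bull. The authors deposited 1 intensity per probe set and array on a linear scale, and their scaling was kept. Per the submitters' processing notes, GCOS 1.1.1 and Affymetrix Expression Console 1.1 were used. The probe summary method and the genome build are not given in the sources used here, so no coordinates are printed. Of 24128 probe sets 112 array controls were removed and the dimmest 40% of the rest left out, which left 14409. Symbols came from the platform annotation (13318 probe sets with 1, 86 with several, 10724 with none). RefSeq gene identifiers matched 13283 and changed 0 symbols.

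Log2(intensity + 1) was fitted with limma 3.58.1 in R 4.3.3 (two-sided, Benjamini-Hochberg over all tested probe sets), high against low IMF with no covariate, and S against other titles with IMF group in the model. The series text names a paired t-test, but the labels pair no animals. Pair correlations used 100000 permutations. The code was tested on simulated data. No arrays were identical. Labels do not say how bulls relate, so p-values set differences against the spread between these samples only, and the number of arrays limits precision. Between the title series they also take in any difference in array handling.

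The genes, lists and rules were chosen with earlier results of these data known. All probe sets of the 5 genes were named. In each pathway role up to 3 other genes with the smallest p among calls between title series were named on the brightest probe set, with the 1 of smallest p between IMF groups, the beta-adrenergic receptors, and the 5 genes most like 2 GNAS probe sets. Alternatives were another pseudocount (16), scaling, filters, covariates, a t-test and arrays left out. Fibroblast, endothelial, pericyte and hepatocyte markers were listed too. Of their tested probe sets, limma called 2 of 7, 3 of 6, 2 of 6 and 1 of 6 higher in S titles and 1, 0, 2 and 0 lower, beside 33.5% higher and 35% lower over all tested probe sets.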

Additional observations from a re-analysis of the deposited data

Results flagged for a closer look

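In 4 of 20 member groups of 10 bulls, the lowest animal stood apart from the rest by a gap past Dixon's 95% limit for 10 values (gap over the group's range). Chance flags about 1 in 20 groups only where the values of each come from 1 normal distribution and the groups are independent. Here each group mixes S and other titles, and the groups share the same 20 arrays, so the count is a description. In CREB1 Bt.4183.1.S1_at the animals set apart were high IMF replicate 6 at 3.81 log2 units, with the next at 5.75, and low IMF replicate 7 at 4.60, with the next at 5.76. In PRKAR2B, which was too dim to be tested, high IMF replicate 6 and low IMF replicate 10 both stood at 0.0144 log2 units, with the next at 2.02 and 2.56. All of these arrays are of S titles, and high IMF replicate 6 has the lowest median intensity of all.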

How the results depend on the processing

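No paired analysis was possible because the replicate numbers were given in accession order and the labels tie no bull of one IMF group to a bull of the other. High against low IMF gave 0 calls under every alternative run, over all bulls and within each title series, and the interaction gave 0. The S against other count stayed within 1.5 times of 9858 in every alternative except one added after the data were seen. With the bioB signal as a further covariate, which does not overlap between the title series, it was 3339, and the pathway list had 19 calls instead of 53. Leaving out each bull gave 9587 to 9841 calls and 51 to 56 in the list. The PRKACA call held in all alternatives in which it was read, with differences from 0.34 to 0.66. It was not read under the other filters or the t-test. The difference in GNAS Bt.20852.1.A1_at between IMF groups ranged from -0.49 to -0.34. Signal limits the 4 dim probe sets, whose animals spread by up to 4.24 log2 units.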
